A study of Mus musculus with 22 samples.

Results

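The genes followed were 31 genes of cholesterol and fatty acid synthesis and their regulation, a group best known as targets of the SREBP transcription factors and, for the exporters, of the sterol sensor LXR. The members were a given list of symbols. They matched 32 Ensembl IDs among the 23081 genes of the Ribo-Seq tables, since Hmgcs1 has a pair of IDs with the same footprint counts. RNA-Seq reads were present for 28 of the 31 symbols. Hmgcs1 and Idi1 were listed at 0 in every RNA-Seq library although both had footprints, and Acaca was not matched in the RNA-Seq files. By role, 16 members make sterols, 9 make or desaturate fatty acids, 4 regulate or transport sterols and 2 export them.

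The cells were mouse cortical neural stem cells grown as cultures, in 14 RNA-Seq libraries and 8 Ribo-Seq libraries. All 3 tet-inducible lines carry the R26-m2rtTA transactivator. KH2 cells have no Msi transgene, whereas tetO-Msi1 and tetO-Msi2 cells also carry an Msi1 or Msi2 cDNA in the Col1A1 locus. These lines were compared with and without 1 µg/ml doxycycline (Dox) for 72 h at E12.5. At E13.5 the tetO-Msi1 line was again compared under both conditions, and KH2 cells were measured untreated. C1 and C4 cells, both E12.5, have floxed alleles of Msi1 and Msi2. Only C4 cells carry the tamoxifen-inducible CreER, and both were compared with and without 4-hydroxytamoxifen (4-OHT) for 48 h. Footprints were measured in 4 of the lines (KH2, tetO-Msi1, C1, C4), all E12.5. Each condition had 1 library, apart from the untreated E13.5 tetO-Msi1 condition, whose technical pair was combined. Tests therefore took lines or stages as repeats, and nothing in the labels says that a condition was cultured more than once.

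Cholesterol is built from acetyl-CoA through mevalonate, farnesyl diphosphate, squalene and lanosterol. When membrane sterol is low, the escort protein of the SREBPs releases them from Insig1 and they are cut to active transcription factors. Srebf2 encodes the form best known for sterol genes and Srebf1 the forms best known for fatty acid genes. When sterols accumulate, LXR raises the exporters Abca1 and Abcg1 and also Srebf1. The brain makes its own cholesterol, because plasma lipoproteins do not cross into it.

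Library totals ranged from 7889966 to 58435172 counted reads for RNA-Seq (60791605 for the summed technical pair) and from 657288 to 6381242 for Ribo-Seq, and the members held 0.716 to 1.34% of the RNA-Seq reads. Msi1 mRNA rose from 19.7 to 108 RPKM with Dox in the E12.5 tetO-Msi1 line, and Msi2 mRNA from 23.2 to 128 RPKM in tetO-Msi2 cells. In C4 cells given 4-OHT, Msi2 mRNA was 4.54 RPKM against 39.5 without it, whereas Msi1 mRNA was 9.42 against 9.46. Msi1 footprints were 1.11 RPKM (20 reads) with 4-OHT and 2.82 RPKM (56 reads) without in C4 cells, and 8.26 RPKM (135 reads) and 23.7 RPKM (424 reads) in C1 cells, which lack Cre. The untreated KH2 Ribo-Seq library stood apart, with 66.7% of its reads in Hes7. In Ribo-Seq of C1 cells the median footprint change of all genes with 4-OHT was -1.44 on the log2 scale. The Msi1 footprint values of C1 cells are to be read against that median. All 7 neural stem markers in the files were above 1 RPKM in 13 of 14 libraries and 6 of them in C4 cells with 4-OHT. Summed over 4 markers each, microglia stayed at or under 0.0734 RPKM and mesenchyme at or under 1.31 RPKM, and 3 endothelial markers summed to at most 0.343 RPKM.

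Promoter sequences are shown for the members whose mRNA moved most with 4-OHT (below) and for Hmgcs1, the cytosolic HMG-CoA synthase. RefSeq start sites (GRCm38.p6) were matched for 23 of the 31 members. Fdps, Fdft1, Sqle, Stard4, Fads1, Scd1, Scd2 and Abcg1 had no entry. The 250 bases before the start site were searched on both strands for the sterol regulatory element TCACNCCAC, the CCAAT box (CCAAT) bound by NF-Y, and the E-box CACGTG. The sterol element was found in 1 of the 23, Hmgcs1, and in 1.23% of the 27025 genes in the table. Only exact matches within these 250 bases were counted, so elements with other letters or elsewhere were missed. A CCAAT box was found in 17 of the 23 members (73.9%) and in 37.5% of all genes. An E-box was found in 4 members (17.4%) and in 6.86% of all genes. Among the members that rose with 4-OHT (below) 9 of 12 had a CCAAT box, and among the other members tested 6 of 8. In the sequences below, read 5′ to 3′ along the gene, capitals mark the sterol element and the CCAAT boxes (ATTGG on the other strand), and no match overlapped another. The Mvk, Nsdhl and Abca1 sequences each matched 1 place in NCBIM37 (mm9), the build of the files, at chr5:114894028-114894277 (plus strand), chrX:70163610-70163859 (plus) and chr4:53172768-53173017 (minus). The Hmgcs1 sequence, on chr13:119690101-119690350 of GRCm38.p6 (plus), had no exact match there.
Hmgcs1: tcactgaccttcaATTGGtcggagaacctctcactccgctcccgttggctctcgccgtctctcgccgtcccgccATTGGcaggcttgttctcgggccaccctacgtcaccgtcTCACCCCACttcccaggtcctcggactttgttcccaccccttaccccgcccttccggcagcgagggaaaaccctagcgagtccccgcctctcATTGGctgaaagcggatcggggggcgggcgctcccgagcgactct
Mvk: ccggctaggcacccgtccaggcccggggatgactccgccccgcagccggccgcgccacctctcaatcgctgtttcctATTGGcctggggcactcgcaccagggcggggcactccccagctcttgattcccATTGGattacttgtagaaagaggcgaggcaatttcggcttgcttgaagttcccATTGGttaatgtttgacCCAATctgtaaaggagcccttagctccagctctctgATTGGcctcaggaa
Nsdhl: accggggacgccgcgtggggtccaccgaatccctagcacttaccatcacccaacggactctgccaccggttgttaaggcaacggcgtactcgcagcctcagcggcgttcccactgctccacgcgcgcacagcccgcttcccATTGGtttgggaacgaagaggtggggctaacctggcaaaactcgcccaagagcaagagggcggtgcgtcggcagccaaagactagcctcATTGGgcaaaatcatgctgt
Abca1: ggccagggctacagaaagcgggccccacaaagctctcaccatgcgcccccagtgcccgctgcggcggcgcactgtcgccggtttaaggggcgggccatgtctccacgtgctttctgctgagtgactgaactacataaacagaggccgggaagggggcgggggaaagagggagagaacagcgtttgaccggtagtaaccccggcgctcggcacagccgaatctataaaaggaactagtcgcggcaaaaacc

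With 4-OHT, mRNAs of sterol synthesis were higher in both floxed lines, including C1 cells, which lack Cre. In the test over both lines (edgeR's quasi-likelihood test on counts, line as a block, Benjamini-Hochberg adjustment), 18 of the 27 members tested passed an adjusted p of 0.05, against 5.5% of the 11626 genes tested. Of these, 17 were higher with 4-OHT, a direction taken by 3.14% of all genes, and Abca1 was lower. The median log2 change of the members was 0.40, and that of all genes was -0.00. Abcg1 did not pass the filter on low counts. Each line has its own untreated library.

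**Figure D1:**
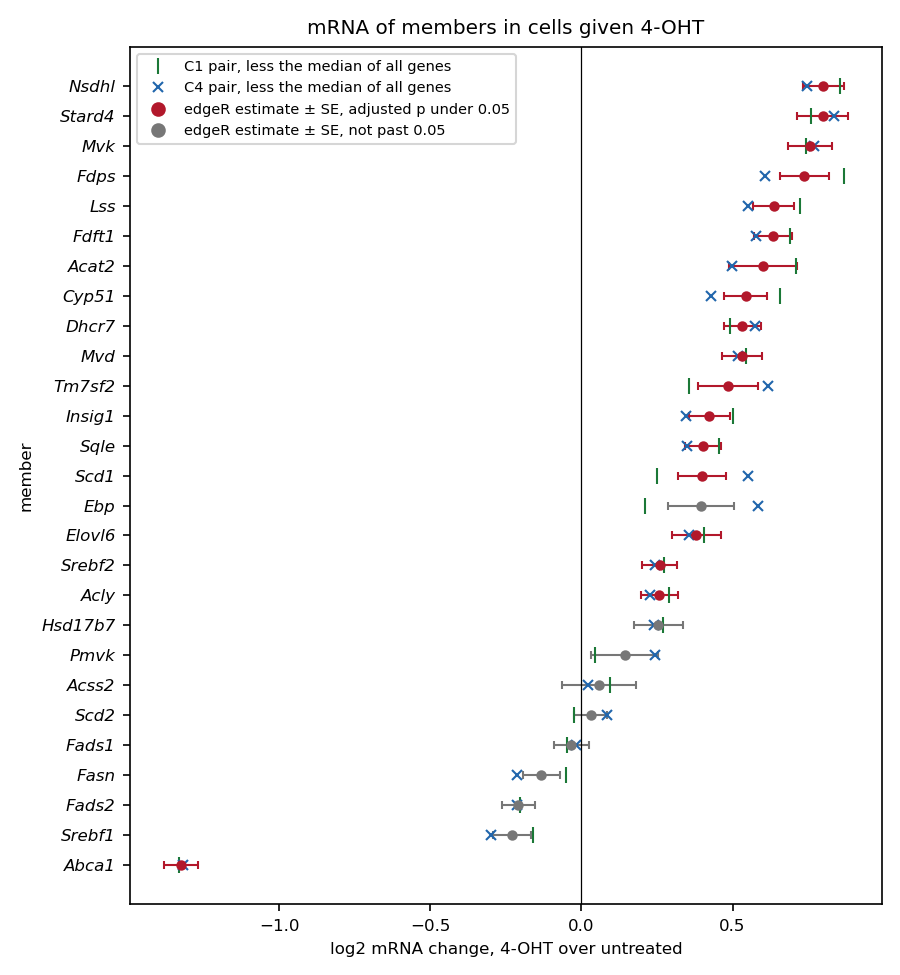
mRNA change of the 27 members tested in cells given 4-OHT, as log2 of treated over untreated. Circles are edgeR estimates over C1 and C4 cells with their standard errors (red, adjusted p under 0.05), and the bars and crosses are the single C1 and C4 pairs. The 17 members called higher lie on the right, and Abca1 lies alone at -1.32.

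All 14 sterol synthesis genes tested had a positive log2 change (median 0.54) and 11 passed the test. Nsdhl, which removes the methyl groups at C-4 of the sterol ring and lies on the X chromosome, changed most. It had 21.8 RPKM in untreated C1 cells and 39.4 with 4-OHT, and 27.4 and 48.2 RPKM in C4 cells. Its log2 change was 0.80 (standard error 0.069, adjusted p = 0.00287, edgeR).

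Mvk, mevalonate kinase, rose from 16.9 to 28.3 RPKM in C1 cells and from 22.0 to 39.4 RPKM in C4 cells, which is a rise of 0.76 on the log2 scale (standard error 0.073, adjusted p = 0.00364, edgeR). Fdps, which makes farnesyl diphosphate, rose from 20.3 to 37.1 RPKM and from 28.8 to 46.0 RPKM (log2 change 0.74, standard error 0.082, adjusted p = 0.00482, edgeR). Lss, the enzyme that folds squalene epoxide into lanosterol, rose from 19.5 to 32.1 and from 29.0 to 44.7 RPKM (log2 change 0.64, adjusted p = 0.00434, edgeR). For each of these genes both treated libraries were above both untreated ones, but how often this holds over all genes was not counted.

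Fdft1, squalene synthase, rose from 47.7 to 76.8 RPKM in C1 cells and from 62.2 to 97.5 RPKM in C4 cells (log2 change 0.63, standard error 0.063, adjusted p = 0.00364, edgeR). Acat2, the cytosolic thiolase that supplies acetoacetyl-CoA, had 4.27 and 6.98 RPKM in C1 cells and 6.23 and 9.22 RPKM in C4 cells (log2 change 0.60, adjusted p = 0.0201, edgeR). Cyp51, lanosterol demethylase, rose from 86.8 to 137 RPKM and from 94.0 to 133 RPKM (log2 change 0.54, adjusted p = 0.00603, edgeR). The groups did not overlap for Acat2 or Cyp51, again without a count over all genes.

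Dhcr7, which makes the last reduction of the Kandutsch-Russell branch, rose with a log2 change of 0.53 (adjusted p = 0.00486, edgeR), as did the mevalonate decarboxylase Mvd (0.53, adjusted p = 0.00572). Tm7sf2, a sterol C14 reductase, had 0.48, and the squalene epoxidase Sqle 0.40. The other 3 sterol genes did not pass. Ebp, a sterol isomerase, had 14.9 RPKM without and 17.2 RPKM with 4-OHT in C1 cells and 12.6 and 19.8 RPKM in C4 cells (log2 change 0.40, adjusted p = 0.0789, edgeR). Hsd17b7, the ketosteroid reductase that acts with Nsdhl, had 0.25 (adjusted p = 0.125), and Pmvk, phosphomevalonate kinase, 0.14 (adjusted p = 0.541).

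The fatty acid genes were divided. Of 8 tested, 3 passed, all higher, and the median log2 change was 0.04. Scd1, a stearoyl-CoA desaturase, rose from 45.1 to 53.5 RPKM in C1 cells and from 42.7 to 65.6 RPKM in C4 cells (log2 change 0.40, adjusted p = 0.0251, edgeR). The elongase Elovl6 rose by 0.38 and Acly, which makes cytosolic acetyl-CoA from citrate, by 0.26. Fasn, the fatty acid synthase, had -0.13 (adjusted p = 0.268, edgeR), and the desaturase Fads2 had -0.21 (adjusted p = 0.0687). Acss2, Scd2 and Fads1 lay between -0.03 and 0.06.

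Among the regulators, Stard4, a carrier of cholesterol between membranes, rose from 17.1 to 29.0 RPKM in C1 cells and from 18.9 to 35.4 RPKM in C4 cells (log2 change 0.80, standard error 0.084, adjusted p = 0.00433, edgeR). Insig1, the retention protein for SREBPs that SREBPs also induce, rose from 56.2 to 79.4 and from 56.6 to 75.6 RPKM (0.42, adjusted p = 0.0115). Srebf2 rose from 74.9 to 90.5 and from 79.5 to 98.8 RPKM (0.26, adjusted p = 0.0349). Srebf1 had 42.4 and 37.9 RPKM in C1 cells and 40.2 and 34.3 RPKM in C4 cells, which did not pass (log2 change -0.23, adjusted p = 0.0792, edgeR).

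The sterol exporter Abca1, at chr4:53043659-53172767 of NCBIM37 on the minus strand, went the other way. It had 63.8 RPKM in untreated C1 cells and 25.3 with 4-OHT, and 70.0 and 29.5 RPKM in C4 cells. Its log2 change was -1.32 (standard error 0.056, adjusted p = 5.00e-05, edgeR), the largest in size among the members tested. Abcg1 was barely detected, with 52 and 10 reads in C1 cells and 37 and 17 reads in C4 cells, for log2 changes of -2.20 (95% counting interval -3.18 to -1.23) and -1.39 (interval -2.22 to -0.56). Counting intervals cover the sampling of reads only.

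Of 37 other genes of the pathway that were tested, 7 were higher and 2 lower with 4-OHT. Of all genes 5.5% were called and 3.14% were higher. The higher ones included the sterol C-4 oxidase Sc4mol (log2 change 0.46, adjusted p = 0.00970, edgeR), the desaturase Sc5d (0.41) and Tmem97, a sterol-responsive membrane protein (0.45). The lower ones were Apoe, the main lipid-carrying apolipoprotein of the brain and an LXR target (-0.92, adjusted p = 0.00359, edgeR), and Soat1, which esterifies cholesterol (-0.50, adjusted p = 0.00594). Apoe mRNA was 1436 and 871 RPKM in C1 cells and 1480 and 714 RPKM in C4 cells, without and with 4-OHT.

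Within single pairs, 9 of 27 members changed at least 1.5-fold in C1 cells, 8 higher, against 1.43% of all genes, and 11 of 27 in C4 cells, 10 higher, against 5.97%. Centred on the median of all genes, 6 of 27 passed in C4 cells, 5 higher, against 5.8% of all genes. Of the 27 members, 21 were above the median of all genes in both pairs, as were 33% of all genes. The difference of log2 changes (C4 less C1, each centred on the median of all genes) had a counting interval that excluded 0 for 17 of 28 members, 6 higher in C4 and 11 lower. It was 0.38 for Ebp (interval 0.22 to 0.53), 0.30 for Scd1 (0.23 to 0.37) and -0.26 for Fdps (-0.36 to -0.16). With 1 library in each condition these differences have no test. The same count was not made over all genes, so the 17 cannot be read as particular to the members. With many reads small differences pass too, such as 0.08 for Dhcr7 (0.02 to 0.14). The sum of 4 astrocyte markers was lower with 4-OHT in both lines (320 and 280 RPKM in C1, 392 and 303 RPKM in C4), although Aldh1l1 went from 142 to 151 RPKM in C4 cells. The sum of 6 oligodendrocyte lineage markers was higher (852 and 957 RPKM, 671 and 929 RPKM), through Olig1 and Olig2. Sox10 went from 2.88 to 2.74 RPKM in C1 and from 9.47 to 7.35 RPKM in C4 cells, and Pdgfra from 9.36 to 8.28 RPKM and from 16.2 to 15.6 RPKM. Neuronal markers (6 genes) summed to 23.0 and 21.9 RPKM in C1 and 24.7 and 19.8 RPKM in C4. Their part in the result was not tested. In bulk RNA, fewer cells of a type and less RNA per cell cannot be told apart.

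Footprints of the leading members changed in the same direction as their mRNA. In the same test on footprint counts 3 of 30 members passed, against 0.934% of 12426 genes, and the members' median log2 change was 0.34 against -0.01 for all genes. Nsdhl had 12.2 and 10.1 footprint RPKM in C1 cells and 3.005 and 5.85 in C4 cells, without and with 4-OHT. Relative to the other genes this was a rise of 1.14 on the log2 scale (standard error 0.25, adjusted p = 0.0162, edgeR). Fdps had 62.9 and 40.4 RPKM in C1 cells and 20.8 and 32.1 in C4 cells (log2 change 0.79, adjusted p = 0.00872). Abca1 had 63.5 and 6.38 RPKM in C1 cells and 15.2 and 4.70 in C4 cells (log2 change -1.71, standard error 0.16, adjusted p = 4.05e-06, edgeR).

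The C1 pair is read against its own median, because nearly every gene had lower footprint RPKM with 4-OHT there. As deposited, 27 of 30 members were at least 1.5-fold lower in that pair, as were 90.7% of all genes (91.4% changed in either direction). Centred on the median, 5 were higher and 1 lower, 20% of the members against 27.5% of all genes. In C4 cells 9 of 29 members passed 1.5-fold, 5 higher and 4 lower, against 32.9% of all genes. The sterol synthesis genes lay above the median of all genes for 15 of 16 members in C1 cells and 14 of 16 in C4 cells. Hmgcs1, the cytosolic HMG-CoA synthase, and Idi1, isopentenyl diphosphate isomerase, could be followed only here. Hmgcs1 had a log2 footprint change of 0.51 (standard error 0.15, adjusted p = 0.202, edgeR) and Idi1 one of 0.40 (adjusted p = 0.611). Centred, Hmgcs1 differed by 0.00 between C4 and C1 (interval -0.11 to 0.12).

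**Figure D2:**
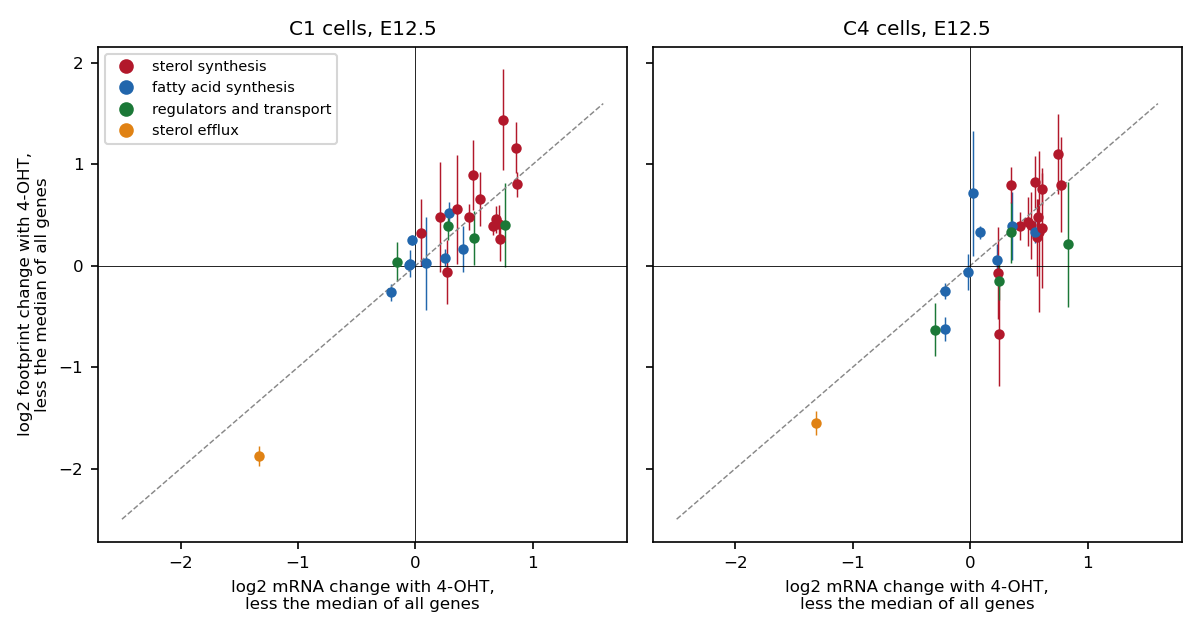
Log2 footprint change against log2 mRNA change with 4-OHT in C1 and C4 cells, each less the median of all genes, for members with more than 5 reads. Points are members coloured by role, vertical lines are 95% counting intervals of the footprint change, and the dashed line marks equal change. Most sterol synthesis genes lie at the upper right and Abca1 at the lower left in both lines.

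TE, the footprint RPKM divided by the mRNA RPKM, gave no call. In the test with assay and treatment as an interaction, 0 of 27 members and 0 of all 8255 genes passed (0% called, 744 genes at an unadjusted p under 0.05). An unadjusted p under 0.05 was found for 2 members, and DESeq2 called 0 members and 14 genes. The median TE change of the members was 0.00, and their range was -0.44 to 0.38. Nsdhl had a TE change of 0.37 (standard error 0.17, adjusted p = 0.574, edgeR) and Abca1 one of -0.37 (adjusted p = 0.551). As deposited, the TE of all 27 members was at least 1.5-fold lower in the C1 pair, as was that of 91.8% of all genes (92.5% in either direction). In the C4 pair the TE of 4 of 27 members (14.8%) was lower by that limit, against 23.6% of all genes (33% in either direction). By the limits used for translational targets in this study (mRNA change under 1.5-fold and TE change of at least 3-fold), 4 of 18 members passed in C1 cells as deposited, all lower (Elovl6, Hsd17b7, Insig1 and Scd1), and 0 once centred. The 4 are 22.2% of the members, and 38.4% of all genes were lower by the same limits. In C4 cells 0 of 15 passed.

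With Dox, mRNAs of sterol synthesis were lower, but few passed a test. In the 3 lines at E12.5, with line as a block, 4 of 28 members passed, against 0.451% of 11969 genes. The members' median log2 change was -0.24, and that of all genes was -0.00. All 14 sterol synthesis genes and all 8 fatty acid genes tested had a negative value. In all, 19 members had an unadjusted p under 0.05 (67.9%), as did 13.8% of all genes. Of 27 members, 13 were below the median of all genes in all 4 Dox pairs (E13.5 included), as were 10.9% of all genes. They were Acss2, Ebp, Elovl6, Fdft1, Fdps, Lss, Mvd, Mvk, Nsdhl, Scd2, Sqle, Stard4 and Tm7sf2.

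Fdps had 32.0 and 26.6 RPKM in KH2 cells without and with Dox, 25.1 and 15.6 in the tetO-Msi1 line, and 39.2 and 23.5 in tetO-Msi2 cells. Its log2 change was -0.56 (standard error 0.096, adjusted p = 0.0328, edgeR). The fall was larger in both transgenic lines, and the values of the treated and untreated libraries overlap across lines. Acss2, which makes acetyl-CoA from acetate, had 38.3 and 31.7 RPKM in KH2 cells, 34.6 and 20.3 in tetO-Msi1 cells and 47.7 and 31.1 in tetO-Msi2 cells (log2 change -0.54, adjusted p = 0.0328, edgeR). Here each treated library was below each untreated one, an outcome not counted over all genes.

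Mvk had 22.9 and 17.7 RPKM in KH2 cells, 17.99 and 13.1 in the tetO-Msi1 line, and 21.4 and 16.5 in tetO-Msi2 cells (log2 change -0.40, adjusted p = 0.0408, edgeR). The groups did not overlap, again without a count over all genes, and KH2 cells without a transgene showed the change as well. Abca1 had 3.70 and 4.77 RPKM in KH2 cells, 4.29 and 8.03 in tetO-Msi1 cells and 1.16 and 1.46 in tetO-Msi2 cells, a rise of 0.55 (standard error 0.10, adjusted p = 0.0408, edgeR). As a ratio, its untreated levels differed more between lines (1.16 to 4.29 RPKM) than the level within any line changed with Dox. Without the tetO-Msi2 pair 1 member passed (Abca1), and without the KH2 pair 15 did.

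**Figure D3:**
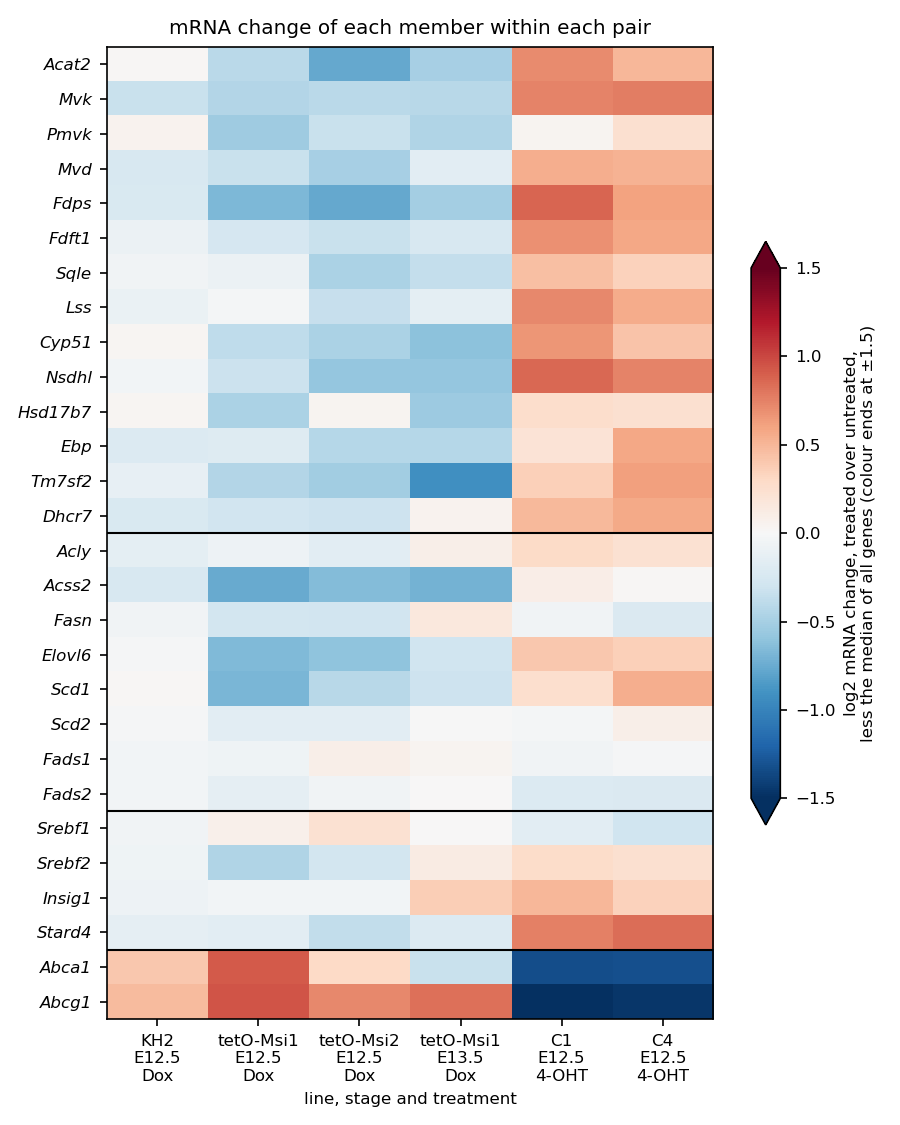
Log2 mRNA change of 28 members (rows, in blocks of sterol synthesis, fatty acid synthesis, regulators and transport, and sterol efflux) within the 6 treated and untreated pairs (columns), less the median of all genes in the pair. Blue is lower and red higher with treatment. The sterol block is mostly blue in the Dox columns of tetO-Msi1 and tetO-Msi2 cells and red in both 4-OHT columns, while Abca1 is blue in both 4-OHT columns. The colours of Abcg1 rest on 3 to 215 reads a library.

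In tetO-Msi1 cells with E12.5 and E13.5 as repeats, 5 of 28 members passed, all lower, against 3.6% of 11938 genes. This test shares its E12.5 pair with the previous one. Acss2 fell from 34.6 to 20.3 RPKM at E12.5 and from 58.8 to 38.0 at E13.5 (log2 change -0.74, standard error 0.16, adjusted p = 4.09e-04, edgeR). Tm7sf2 fell from 28.5 to 20.7 and from 34.1 to 19.0 RPKM (-0.70, adjusted p = 0.00131). Fdps fell from 25.1 to 15.6 and from 50.9 to 37.7 RPKM (-0.60, adjusted p = 0.00785).

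Cyp51 had 48.7 and 36.97 RPKM at E12.5 and 114 and 79.2 RPKM at E13.5 (-0.51, adjusted p = 0.0290, edgeR). Scd1 had 66.2 and 41.0 RPKM, and 116 and 98.6 RPKM (-0.50, adjusted p = 0.0347, edgeR). For these 5 genes Dox lowered the value at both stages. The variance in this fit was shared fully across genes, so a gene's own disagreement between stages did not widen its error. DESeq2 called 1 of the 5, Acss2.

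The regulators did not follow a common course with Dox. Srebf2 had a log2 change of -0.47 (counting interval -0.51 to -0.42) with Msi1 induction of E12.5 cells, -0.24 with Msi2 induction, -0.10 in KH2 cells and 0.20 (interval 0.18 to 0.22) with Msi1 induction of E13.5 cells. Srebf1 had 0.06, 0.25, -0.09 and 0.09 in the same order. Insig1 had -0.05, -0.02 and -0.11 in the E12.5 pairs and 0.46 (interval 0.42 to 0.49) at E13.5. For Srebf2 the intervals of the E12.5 and E13.5 pairs of tetO-Msi1 cells lay on opposite sides of 0, a difference with no test, whereas that of Insig1 at E12.5 (-0.13 to 0.03) held 0. Of the exporters, Abca1 changed by 0.90 (interval 0.82 to 0.99) at E12.5 in tetO-Msi1 cells and by -0.26 at E13.5, from 25.8 to 21.6 RPKM.

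By pair, 0 of 27 members changed at least 1.5-fold with Dox in KH2 cells (0.944% of all genes), 5 with Msi1 induction at E12.5 (3.38%), 3 with Msi2 induction (3.08%) and 2 with Msi1 induction at E13.5 (8.22%). Of these, 4, 3 and 2 were lower. The largest falls were those of Acss2 (-0.77), Scd1 (-0.69) and Fdps (-0.69) for Msi1 at E12.5, Acat2 (-0.74), Fdps (-0.74) and Acss2 (-0.62) for Msi2, and Tm7sf2 (-0.84), Acss2 (-0.63) and Cyp51 (-0.53) at E13.5, as log2 changes of RPKM. In KH2 cells they were Mvk (-0.38, interval -0.48 to -0.27), Acss2 (-0.27) and Mvd (-0.27). The largest rise in each pair other than those of the exporters was 0.46, for Insig1 at E13.5, and 0.25 or less in the others.

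No member's change with Dox was shown to exceed that of KH2 cells. In the fit of the transgenic response less the KH2 response, 0 of 28 members passed, as did 0 of all 12167 genes (0% called, 584 genes at an unadjusted p under 0.05, and 0 by DESeq2). An unadjusted p under 0.05 was found for 7 members (25%), against 4.8% of all genes. The KH2 response in this fit came from a single pair. Acat2 was lowest, with a difference of -0.58 (standard error 0.23, adjusted p = 0.971, edgeR), then Cyp51 (-0.52, adjusted p = 0.962) and Tm7sf2 (-0.52, adjusted p = 0.971). The astrocyte marker sum was lower with Dox in all 4 pairs, at 126 and 107 RPKM in KH2 cells, 134 and 116 in the tetO-Msi1 line, 74.4 and 64.8 in tetO-Msi2 cells and 221 and 191 at E13.5. Most of that sum was Aldh1l1 (114 of 126 RPKM in untreated KH2 cells). S100b was higher with Dox in all 4 pairs, at 2.98 and 3.02, 2.74 and 5.77, 1.64 and 3.46, and 6.98 and 11.1 RPKM in the same order, and Gfap and Aqp4 were slightly higher with Dox in the E12.5 tetO-Msi1 pair. The part of these markers in the result was not tested.

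Of 38 other genes of the pathway tested over the 3 lines, Apoe was higher with Dox (log2 change 0.67, standard error 0.12, adjusted p = 0.0393, edgeR) and Pnpla3, a lipid hydrolase induced by SREBPs, was lower (-0.67, adjusted p = 0.0408). In tetO-Msi1 cells over both stages, Apoe (0.83) and Thrsp (0.77), a lipogenic cofactor, were higher and Pnpla3 (-0.64) and the sterol reductase Lbr (-0.53) were lower. Of all genes 0.451% passed over the 3 lines and 3.6% in tetO-Msi1 cells. Apoe mRNA was 76.1 and 81.5 RPKM in KH2 cells, 114 and 223 in tetO-Msi1 cells and 26.1 and 49.9 in tetO-Msi2 cells.

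Footprints were tested for Dox in KH2 and tetO-Msi1 cells, and 0 of 31 members passed, against 0.633% of 11526 genes. An unadjusted p under 0.05 was found for 5 members (16.1%) and for 4.67% of all genes, and DESeq2 called 0 members. Acss2 had 12.9 and 9.22 footprint RPKM in KH2 cells, and its log2 change over both lines was -0.58 (standard error 0.20, adjusted p = 0.370, edgeR). By pair, 2 of 28 members changed at least 1.5-fold in KH2 cells (23% of all genes did) and 5 of 28 in tetO-Msi1 cells (24.9%). The tetO-Msi1 pair held the fall of Elovl6, from 166 to 19 reads (log2 change -1.38, counting interval -2.07 to -0.70), and the rise of Abca1 (0.89, interval 0.72 to 1.06). The treated tetO-Msi1 library was the smallest of all, with 2 to 3355 footprint reads for a member.

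TE with Dox also gave no call among 26 members, against 0.0155% of 6442 genes. An unadjusted p under 0.05 was found for 1 member and for 232 genes, and DESeq2 called 0 members. That member was Nsdhl, with a TE change of 0.63 (standard error 0.23, adjusted p = 1.00, edgeR), from 38 and 180 untreated footprint reads. At least 1.5-fold changes of TE were seen for 1 of 26 members in KH2 cells (24.6% of all genes) and 2 of 26 in tetO-Msi1 cells (22.3%). The limits for translational targets were met by 0 of 26 members in KH2 cells and by 0 of 21 in tetO-Msi1 cells.

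Between stages, Abca1 differed most among the members. Untreated KH2 and tetO-Msi1 cells of E13.5 were compared with those of E12.5, with line as a block, and 12 of 28 members passed, close to the 50.8% of all genes that did. Values across experiments are given on a common scale, TMM-normalised reads per kb and 1e+06 reads. Abca1 was at 23.7 and 28.0 at E12.5 and at 89.6 and 91.7 at E13.5, for KH2 and tetO-Msi1 cells. Its log2 difference was 1.80 (standard error 0.11, adjusted p = 8.35e-07, edgeR). That of Abcg1 was 1.17 (adjusted p = 0.0307, edgeR), but Abcg1 was barely detected. It had 8 and 23 reads at E12.5 and 46 and 139 reads at E13.5, for KH2 and tetO-Msi1 cells.

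Fasn was at 271 and 212 at E12.5 and at 355 and 496 at E13.5 (log2 difference 0.79, adjusted p = 0.00249, edgeR), and Hsd17b7 at 16.2 and 13.7, then 19.4 and 29.6 (0.69, adjusted p = 0.0273). Lss (0.45), Mvd (0.42) and Srebf1 (0.31) were also higher at E13.5. Tm7sf2 was lower, at 197 and 186 and then 115 and 121 (-0.72, adjusted p = 4.73e-04, edgeR), with Stard4 (-0.69), Fads1 (-0.51), Scd2 (-0.40) and Fads2 (-0.34). The list as a whole had no direction between stages, with a median of -0.06. Cell type markers are given on the deposited RPKM scale, which is not level between stages. In KH2 cells Srebf2 was at 67.9 and then 124 RPKM, but at 435 and then 387 on the common scale. In KH2 and tetO-Msi1 cells Gfap, of astrocytes, was at 0.918 and 0.825 RPKM at E12.5 and at 19.2 and 26.2 RPKM at E13.5, and Olig1, of the oligodendrocyte lineage, at 229 and 166 and then 635 and 433 RPKM. Nes, of neural stem cells, was at 19.9 and 23.8 and then 92.1 and 103 RPKM. Some markers of the same kinds differed less in RPKM, such as Sox2 (223 and 197, then 381 and 253 RPKM). Aldh1l1 was at 114 and 122 and then 203 and 168 RPKM. Differences of that size in RPKM are not read as differences in level. The part of the markers in the result was not tested, and stage and library batch cannot be told apart here.

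Between untreated floxed and tet-inducible lines of E12.5 the list did have a direction. Of 27 members 24 passed, against 66.3% of 12211 genes, and 22 of them were lower in C1 and C4 cells, a direction taken by 33.3% of all genes. The median log2 difference was -1.17, and that of all genes was 0.00. Acss2 was at 17.9 in C1 and 22.8 in C4 cells, against 245, 226 and 314 in KH2, tetO-Msi1 and tetO-Msi2 cells (log2 difference -3.69, standard error 0.21, adjusted p = 3.29e-05, edgeR). Tm7sf2 was at 42.4 and 38.5 against 197, 186 and 173 (-2.20), Fads1 at 302 and 302 against 1206, 1250 and 1274 (-2.05), and Scd1 at 137 and 133 against 463, 433 and 588 (-1.88). The groups did not overlap for any of these 4, but how many of all genes do not overlap was not counted.

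The other 2 members called were higher in the floxed lines. Abca1 was at 194 and 219 in C1 and C4 cells, against 23.7, 28.0 and 7.63 in KH2, tetO-Msi1 and tetO-Msi2 cells (log2 difference 3.38, standard error 0.49, adjusted p = 0.00110, edgeR). Hsd17b7 was at 60.2 and 55.4 against 16.2, 13.7 and 18.5 (1.84, adjusted p = 1.20e-04). Srebf1 was at 129 and 126 against 312, 269 and 293 (-1.20), and Srebf2 at 228 and 249 against 435, 426 and 492 (-0.92). Some markers differed between these lines too, on the deposited RPKM scale, which is not level between them. Srebf2 was at 74.9 RPKM in C1 and 67.9 RPKM in KH2 cells, but at 228 and 435 on the common scale. Gfap was at 60.3 and 151 RPKM in untreated C1 and C4 cells and at 0.0127 to 0.918 RPKM in the tet-inducible lines, Nes at 156 and 150 against 19.9 to 36.1 RPKM, and the neuronal gene Snap25 at 10.4 and 9.27 against 0.555 to 1.05 RPKM. Other markers of the same kinds differed less in RPKM, but on this scale similar values are not read as similar levels. Sox2 was at 205 and 177 against 161 to 223 RPKM, and Tubb3 at 6.45 and 8.02 against 4.19 to 5.53 RPKM. The part of the markers in the result was not tested, and line, experiment and any difference in strain cannot be told apart in this comparison. Of the 38 other pathway genes, 17 were lower and 4 higher, Apoe among the higher. Of all genes 66.3% were called and 33.3% were lower, so these calls are not particular to the pathway.

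**Figure D4:**
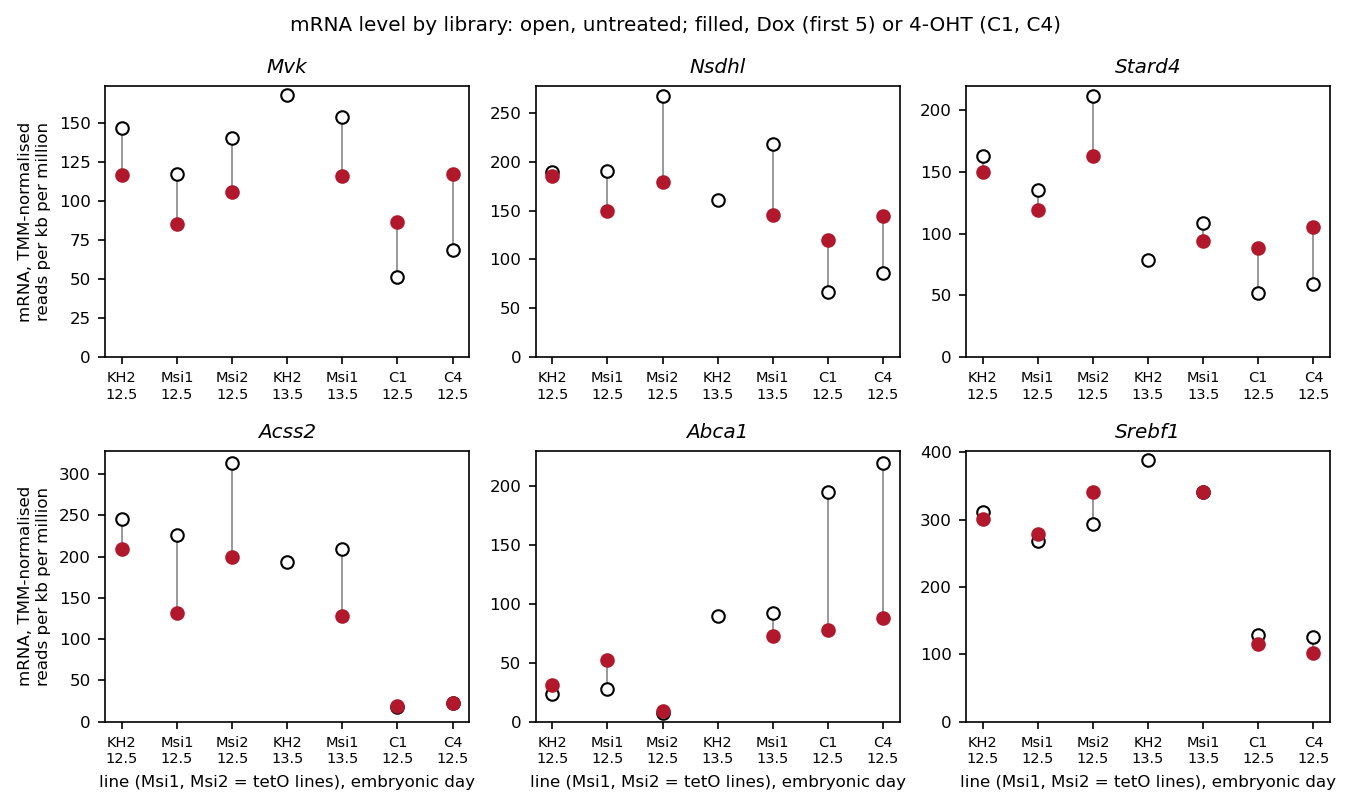
mRNA of 6 members in each line and stage, in TMM-normalised reads per kb and 1e+06 reads on axes from 0. Open circles are untreated libraries and filled circles the treated ones, with 1 library each and the technical pair combined. Mvk, Nsdhl and Stard4 have filled circles below the open ones in the 3 Dox pairs of E12.5, a fall that passed the test for Mvk only, and rise with 4-OHT from a lower untreated level in C1 and C4 cells. Acss2 is low and Abca1 high in the untreated floxed lines.

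In untreated cells the members were expressed above most genes. Their median percentile of mRNA level among genes with more than 5 reads was 82.7 in C4 and 83.1 in C1 cells and between 91.3 and 93.5 in the tet-inducible lines. Scd2, the main desaturase of brain, was the highest member in every untreated library (1504 to 4570 reads per kb and 1e+06 reads), and Abcg1 was the lowest (0.158 to 1.64).

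TE in untreated cells varied widely within the pathway. Percentiles of TE among all genes with more than 5 reads in both assays had a median over the members of 67.5 in KH2 cells, 68.5 in tetO-Msi1 cells, 61.4 in C1 cells and 73.2 in C4 cells. Acat2 (97.4 to 98.6), Scd1 (96.7 to 97.6) and Fdps (95.3 to 96.1) were near the top in all 4 lines. Their percentiles differed by less than 1.5 points between lines, from 261 to 4358 footprint reads.

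Sqle (23.1 to 34.0), Srebf2 (17.8 to 34.9) and Nsdhl (5.30 to 48.7) stayed below the middle in all 4 lines. Mvk ranged from 6.09 in KH2 to 54.1 in C4 cells, on 20 and 62 footprint reads. Fdps, which acts between Mvk and Sqle in the pathway, was above both in all 4 lines. The length used for mRNA can be short (137 nt for Pmvk), and a TE compared between genes depends on the lengths used in each assay. Against genes with more than 50 reads, the median percentiles were 62.8, 68.1, 52.8 and 68.6 in KH2, tetO-Msi1, C1 and C4 cells.

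**Figure D5:**
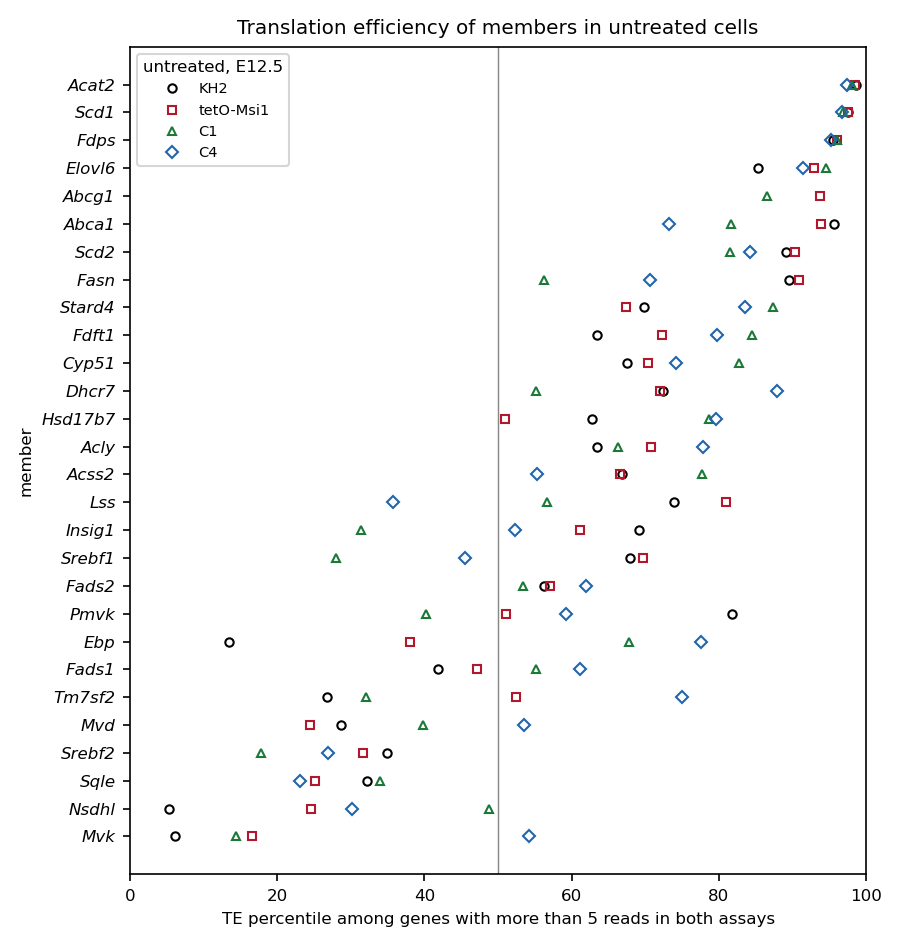
TE percentile of each member (rows, ordered by the median) in untreated KH2, tetO-Msi1, C1 and C4 cells of E12.5, among genes with more than 5 reads in both assays. Each symbol is 1 line and the vertical line marks the middle of all genes. Acat2, Scd1 and Fdps sit at 95.3 or above in every line.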

How the data were processed

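RNA-Seq and Ribo-Seq libraries of cultured neural stem cells were analysed from the tables of their authors. The authors deposited read counts per Ensembl gene for each library, not normalized, and for Ribo-Seq counts over coding exons. The authors also deposited RPKM values, which equal the count divided by the length and by a read number constant within a library. Per the labels, Bowtie, TopHat and mm9 were used in processing; their versions are not given in the sources used here. All per-sample columns were used. Counts of the technical pair were summed and their RPKM averaged, after a check (their chi-square over 13207 genes was 1.67 times its degrees of freedom, and 10.9 times for untreated KH2 against tetO-Msi1 cells), so they count as 1 sample.

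Counts were tested with edgeR (4.0.16, R 4.3.3; TMM, genes of at least 1 CPM in at least 2 libraries, quasi-likelihood test, Benjamini-Hochberg adjustment over all genes, threshold 0.05), with line or stage as a block, except for floxed against tet-inducible lines, which had none. TE was tested as the interaction of assay and treatment on genes with more than 5 reads in every library. The fits were also run on simulated counts in which every gene had the same spread and lines and stages did not differ. That run does not show how the tests behave on these data. Each condition had 1 library, so in the blocked fits p-values rest on how far a change differed between lines or stages. Where lines differ in transgene or Cre, that difference is part of the spread. For Dox mRNA in tetO-Msi1 cells and for Dox footprints the variance was shared fully across genes. In these fits a gene's own spread did not enter. Changes within a pair are log2 ratios of RPKM, with 0.5 added for counts of genes past 1.5-fold (mean RPKM at least 1), and with nothing added for single genes, whose 95% intervals come from read counts (delta method). Promoter sequences came from RefSeq and were placed in NCBIM37 by exact match. Alternatives were RLE size factors, DESeq2 (1.42.0), no filter, no block, other pseudocounts (0.1 and 2), read limits (20 and 50) and fold limits, centring on the median, and leaving out a pair, line, technical replicate or the top 10 footprint genes of each library. Python 3.11.15, pandas 2.3.3, numpy 2.4.6 and matplotlib 3.10.9 were used. Named genes were, per test, members past the threshold (the 10 with the largest change in full), the 3 largest rises and falls in each pair, and Srebf1, Srebf2 and Insig1. Others are named for a description. The members, roles and lists were chosen with earlier results of these data known.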

Additional observations from a re-analysis of the deposited data

How the results depend on the processing

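No paired analysis was possible because the groups compared share fewer than 2 replicate numbers in the labels, where pairing by replicate number is meant. Treated and untreated libraries were matched by line or stage instead, as a block in the tests. Every called change of a member kept its sign under every alternative run. The line or stage block decided the counts of calls: without it 0 members passed for 4-OHT mRNA, for Dox in the 3 lines and for Dox in tetO-Msi1 cells, and 1 passed for 4-OHT footprints. For 4-OHT mRNA the other alternatives gave 16 (DESeq2) to 22 members (no filter). For Dox in the 3 lines, 13 members passed with no filter on low counts, 15 without the KH2 pair and 1 without the tetO-Msi2 pair, and for Dox in tetO-Msi1 cells 1 passed with DESeq2. Over all genes, calls for 4-OHT mRNA went from 639 to 1254 with no filter and 0 with no block, for 4-OHT footprints from 116 to 77 (DESeq2), 179 (no filter) and 2 (no block), for Dox in the 3 lines from 54 to 437 (no filter), 0 (no block), 510 (without KH2), 96 (without tetO-Msi1) and 24 (without tetO-Msi2), and for Dox in tetO-Msi1 cells from 430 to 103 (DESeq2) and 0 (no block). In counts of members within pairs, the 2-fold limit left 0 mRNAs in each of the 3 transgenic pairs, 1 in C1 and 1 in C4 cells, 0 footprints in KH2 and 1 in tetO-Msi1 and in C4 cells, and a TE count of 0, 0 and 1 in KH2, tetO-Msi1 and C4 cells. A pseudocount of 2 left 1 mRNA in tetO-Msi2 cells. Centring on the median gave 6 mRNAs in C4 cells, 6 footprints in C1 cells, and a TE count of 3 in KH2 and 1 in C1 cells. More than 20 reads left a TE count of 1 in tetO-Msi1 cells, and more than 50 reads left 1 footprint in KH2 and 3 in tetO-Msi1 cells and a TE count of 0, 1 and 2 in KH2, tetO-Msi1 and C4 cells. The median TE percentile in C1 cells was 52.8 with genes over 50 reads. Leaving out a line for 4-OHT leaves 1 pair and no test, so the pairs are given singly. Apart from fewer genes, samples or reads in these settings, the cause was not tested. Ribo-Seq depth limited what could be seen for low members, with 20 to 68 untreated footprint reads for Mvk.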
